A study of Mus musculus with 9 samples.

Results

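The Zfp genes are mouse genes for zinc finger proteins whose symbol is Zfp followed by a number. The accessibility of their promoters was measured by ATAC-seq, an assay that inserts sequencing adapters into open chromatin with a transposase. The cells were HPC7, a line of mouse blood progenitors kept in stem cell factor. The Snai1 group (3 libraries) carried a MIG retroviral vector for FLAG-tagged wildtype Snai1, and the EV group (3 libraries) carried the empty MIG vector. All groups share the HPC7 parent line and a retroviral transduction. The other group of 3 libraries, from cells with the mutant mut5Snai1, was not analysed here. A promoter window was given to the RefSeq gene whose 5' end lay within 1000 bp of its start position, otherwise to the one gene spanning it, and a gene with several windows kept the most accessible. RefSeq annotates 372 such Zfp genes, and 259 of them had a window, of 10185 genes with a window in all. The other 113 had none and are not described.

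Most proteins of this family carry C2H2 fingers, tandem zinc-binding loops that each read a few bases of DNA. Many also carry a KRAB box, which recruits the co-repressor Trim28 and, through it, the histone methyltransferase Setdb1 and the HP1 proteins. This machinery is best known for silencing endogenous retroviruses and imprinted loci. The genes multiply by tandem duplication, so that near-identical neighbours form long clusters. Snai1 is itself a C2H2 zinc finger protein and a repressor that binds the E-box CAGGTG, best known from epithelial-mesenchymal transition. Which members carry a KRAB box was not analysed here.

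The promoters on which the main results turn are given first. They belong to the 4 Zfp genes whose windows lost most accessibility in Snai1 cells, and to Zfp983, a neighbour of Zfp53 with a similar promoter that did not pass the test. Each runs 5' to 3' on the gene's strand from 250 bp before to 50 bp after the start that RefSeq gives (GRCm38.p6, the coordinates of mm10). Capitals mark CAGGTG or its reverse complement CACCTG. The Zfp53 promoter is chr17:21488738-21489037 on the plus strand, Zfp820 is chr17:21845710-21846009 on the minus strand and Zfp2 is chr11:50916127-50916426 on the minus strand. Those of Zfp948 (chr17:21566728-21567027) and Zfp983 (chr17:21650361-21650660) lie on the plus strand.
Zfp53: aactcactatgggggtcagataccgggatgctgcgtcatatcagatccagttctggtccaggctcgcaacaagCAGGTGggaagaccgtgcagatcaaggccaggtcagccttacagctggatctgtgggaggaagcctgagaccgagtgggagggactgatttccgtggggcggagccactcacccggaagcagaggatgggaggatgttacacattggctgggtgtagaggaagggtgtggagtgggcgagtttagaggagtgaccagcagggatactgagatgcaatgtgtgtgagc
Zfp820: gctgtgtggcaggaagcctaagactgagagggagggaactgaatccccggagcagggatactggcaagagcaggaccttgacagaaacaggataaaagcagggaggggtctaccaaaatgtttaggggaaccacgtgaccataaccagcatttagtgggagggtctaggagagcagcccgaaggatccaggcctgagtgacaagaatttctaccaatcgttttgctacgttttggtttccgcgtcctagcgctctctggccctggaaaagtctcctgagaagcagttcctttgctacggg
Zfp2: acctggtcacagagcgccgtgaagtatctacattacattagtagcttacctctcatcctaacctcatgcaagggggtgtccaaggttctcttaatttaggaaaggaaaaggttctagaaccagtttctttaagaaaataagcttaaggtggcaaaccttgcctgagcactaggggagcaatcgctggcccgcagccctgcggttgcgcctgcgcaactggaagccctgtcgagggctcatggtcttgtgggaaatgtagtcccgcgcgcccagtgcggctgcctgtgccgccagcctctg
Zfp948: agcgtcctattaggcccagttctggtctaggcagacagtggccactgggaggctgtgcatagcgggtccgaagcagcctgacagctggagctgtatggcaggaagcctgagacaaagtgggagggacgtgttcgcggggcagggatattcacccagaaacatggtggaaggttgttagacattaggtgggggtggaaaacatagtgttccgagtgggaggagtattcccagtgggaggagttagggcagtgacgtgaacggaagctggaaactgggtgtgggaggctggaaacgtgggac
Zfp983: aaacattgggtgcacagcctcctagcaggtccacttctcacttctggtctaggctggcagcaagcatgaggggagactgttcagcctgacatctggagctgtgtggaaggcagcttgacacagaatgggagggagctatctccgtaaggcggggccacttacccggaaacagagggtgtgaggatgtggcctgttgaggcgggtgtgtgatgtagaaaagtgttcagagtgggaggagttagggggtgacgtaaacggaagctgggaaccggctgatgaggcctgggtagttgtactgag

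Across the family, small gains were more frequent than losses on the authors' scale, an order that turned round when the overall or local median was subtracted, and the largest changes were losses at a few genes. The values are those of the authors' deposited table, which gives 1 log2 concentration (the normalized read level of a window) per group, with the authors' p and FDR. It holds no value per library, so no SD or n can be given, and the depth of the libraries is unknown. Whether each library of a group had its own transduction is not stated in the labels, and the p-values reflect how far the libraries of a group vary, possibly for technical reasons. A change is Snai1 minus EV on the log2 scale. Its standard error, called the implied SE, was worked back from the change and its p. In bulk cells, a promoter open in fewer cells and one less open in each cell cannot be told apart. As a check of the cell type, 13 of 15 blood progenitor markers had a window, against 2 of 10 fibroblast markers. The windows are the same for both groups, so this says nothing of either group alone. Of the 13 blood markers, 5 were higher in Snai1 at the authors' FDR of 0.05 (38.5%) and 2 lower (15.4%). The shares over all genes with a window were 19.6% and 10.3%. Of the 2 fibroblast markers, Fap was higher in Snai1 (change 0.38) and Pdgfrb did not pass. Zfp promoters were more often covered (69.6%) than protein-coding genes at large (44.7%).

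At the authors' FDR of 0.05, 74 of the 259 Zfp genes passed (28.6%), against 29.9% of all genes with a window. Of these, 52 were higher in Snai1 (20.1%, against 19.6% of all genes) and 22 were lower (8.49%, against 10.3%). The other 185 did not pass. The shares therefore lay near the background. The median change was 0.14 over the Zfp genes and 0.08 over all genes, and 197 Zfp genes had a positive change (76.1%, against 67.1% of all genes). The called gains were small, with a median of 0.25, and the called losses were larger, with a median of -0.61. A called change of at least 1 log2 was seen at 5 Zfp genes (1.93%, against 2.02% of all genes), of which 4 were lower in Snai1 (against 1.32% of all genes) and 1 was higher.

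**Figure D1:**
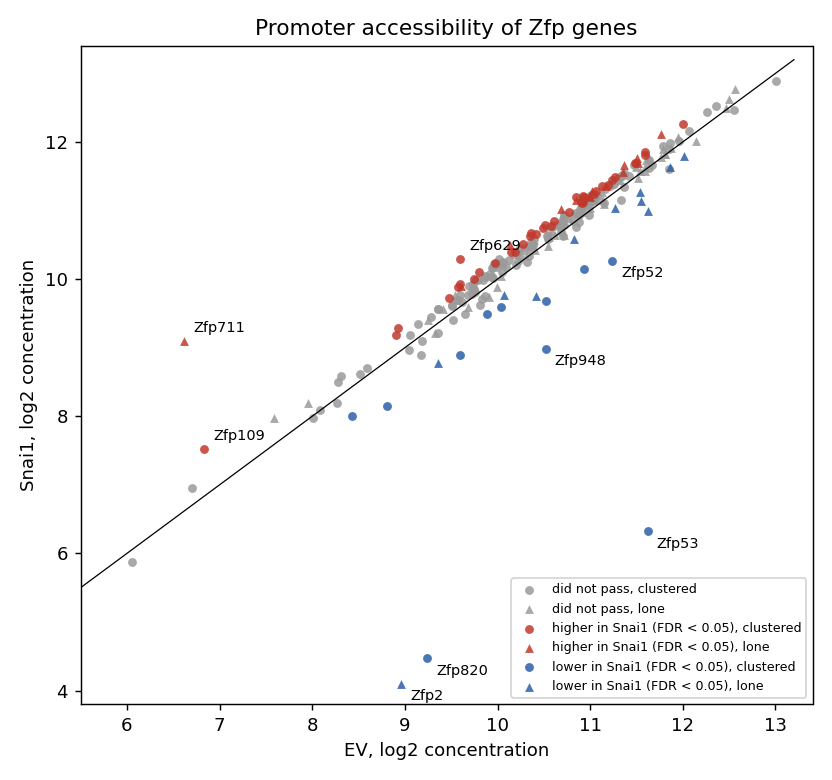
Log2 concentration in Snai1 (vertical axis) against EV (horizontal axis) for the 259 Zfp genes; each point is 1 gene, circles are genes with another Zfp gene within 1 Mb, triangles are lone genes, and the line marks equal values. Most points lie within a narrow band on the line, while Zfp53, Zfp820 and Zfp2 lie far below it and Zfp711 far above.

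The direction of the calls depended on the point from which a change is measured. When the median of all windows (0.08) was subtracted, 13 Zfp genes were higher in Snai1 (5.02%, against 7.26% of all genes) and 25 lower (9.65%, against 13.8%), so that 34.2% of the called genes were higher in place of 70.3%. All genes moved alike, to 34.5% in place of 65.5%. When the median of the non-Zfp windows within 2 Mb (of the whole chromosome for the 16 Zfp genes with under 5 such windows) was subtracted, 13 were higher (against 5.63% of all genes) and 21 lower (8.11%, against 8.41%), so that 38.2% of the called Zfp genes and 40.1% of all called genes were higher. Of the 22 losses, 20 were also called after this local subtraction and all 22 after the subtraction of the overall median. Of the 52 gains, 12 and 13 were.

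The strongest pattern was a run of losses in the Zfp cluster of proximal chromosome 17, which spans 21.01 to 23.56 Mb from Zfp160 to Zfp213. Of its 22 annotated Zfp genes, 20 had a window: 6 were lower in Snai1, 1 was higher and 13 did not pass. All 6 losses lay in the 421 kb from Zfp53 to Zfp995, where only 2 windows, those of Zfp983 and Zfp760, did not pass. The 14 windows of the cluster outside this stretch had a median change of 0.15, and none of them was lower.

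Zfp53 (chromosome 17, 21487988 to 21489988, at the annotated 5' end) had a log2 concentration of 6.32 in Snai1 and 11.62 in EV in the authors' deposited table, a change of -5.30 or 39.4-fold lower in Snai1, with its p listed at 0. Its level in EV was among the upper ones for Zfp windows of the longer, plus-strand kind, whose median was 10.95, and its level in Snai1 lay below that of every Zfp window of this kind in EV, the lowest being Zfp711 at 6.62. Zfp820 (chromosome 17, 21845659 to 21846759, at its 5' end) had 4.47 in Snai1 and 9.24 in EV, a change of -4.77 (FDR 2.03e-105, implied SE 0.22) or 27.3-fold lower, in the authors' deposited table. Both windows kept very little of their accessibility in Snai1 cells.

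The losses at the other 4 genes of the stretch were partial. Zfp948 had 8.98 in Snai1 and 10.52 in EV (change -1.54, FDR 4.38e-71), and Zfp52 had 10.27 in Snai1 and 11.24 in EV (change -0.97, FDR 3.77e-23), both at windows inside the annotated gene in the authors' deposited table. For Zfp229, also inside the gene, the authors' deposited table gave 10.14 in Snai1 and 10.93 in EV (change -0.79, FDR 4.53e-11). At the 5' end of Zfp995 the levels were 8.15 in Snai1 and 8.81 in EV (change -0.66, FDR 5.51e-06), again in the authors' deposited table. These 4 windows thus kept levels between 8.15 and 10.27 in Snai1 cells.

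The genes between and beside them gave no such change. Zfp983, between Zfp948 and Zfp229, had 11.51 in Snai1 and 11.34 in EV (change 0.16, FDR 0.166), and Zfp760 had 10.95 in Snai1 and 10.88 in EV (change 0.07, FDR 0.575) in the authors' deposited table. Zfp51, 38.6 kb before Zfp53, had 12.01 in Snai1 and 11.96 in EV (change 0.05, FDR 0.733) in the authors' deposited table. Zfp54, 65.8 kb before it, had 11.60 in Snai1 and 11.85 in EV, and its change of -0.25 had a wide implied SE of 0.23 (FDR 0.434). Zfp758, 872.5 kb beyond Zfp53, was the only member of the cluster higher in Snai1, with 10.67 in Snai1 and 10.36 in EV (change 0.31, FDR 0.00124) in the authors' deposited table. The 2 windows of other genes inside the cluster, those of the predicted genes Gm7072 (0.15) and Gm16386 (0.08), did not pass. The losses were therefore interleaved with promoters that did not pass the test rather than a uniform block. Within 2 Mb, Zfp229, Zfp820 and Zfp995 had 7, 11 and 11 non-Zfp windows, with medians of 0.10, 0.08 and 0.08. Zfp53, Zfp52 and Zfp948 had only 3 such windows, under the minimum of 5, so the median of chromosome 17 (0.09) stood in for a local one and says nothing of their surroundings.

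**Figure D2:**
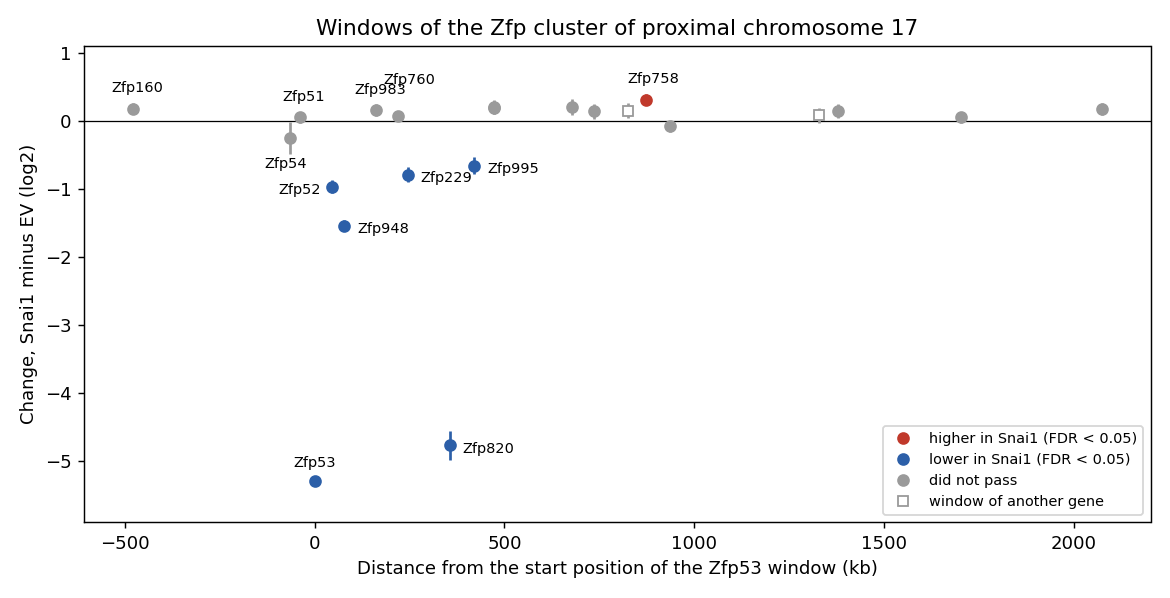
Change in log2 concentration (Snai1 minus EV, vertical axis) of each window of the Zfp cluster of proximal chromosome 17 against its distance from the start position of the Zfp53 window (horizontal axis, kb). Filled circles are Zfp genes and open squares other genes. Bars are 1 implied SE, and Zfp53 has none because its p is listed at 0. For changes under 0.1 in size the bar is the median of an accessibility bin and not worked back from the window's own p. The 6 lower windows lie between 0 and 420.9 kb, with Zfp53 and Zfp820 near -5 and the other 4 between -1.54 and -0.66.

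Outside this cluster, the largest loss was at Zfp2 (chromosome 11, 50916076 to 50917176), a lone gene among symbols of Zfp and a number. Zfp354c, whose symbol ends in a letter and was left out, lies within 1 Mb (chromosome 11, 50827631 to 50828731). It had 9.33 in Snai1 and 9.34 in EV (change 0.00, FDR 0.983). The log2 concentration of Zfp2 was 4.10 in Snai1 and 8.96 in EV (change -4.86, FDR 6.57e-95, implied SE 0.23) in the authors' deposited table. The next windows on either side, those of the glutamate receptor gene Grm6 at 65.5 kb (-0.02) and the kinase gene Clk4 at 346.9 kb (0.15), did not pass. In Snai1 cells, Zfp2 and Zfp820 lay below Zfp984, the least accessible Zfp window of the same, shorter kind in EV (5.87 in Snai1 and 6.05 in EV, change -0.18, FDR 0.617).

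The remaining called losses were below 1 log2. Zfp605 (chromosome 5) had 9.68 in Snai1 and 10.52 in EV (change -0.84, FDR 1.18e-16, implied SE 0.10) in the authors' deposited table, while its neighbours Gtpbp6 (-0.17) and Chfr (0.00) did not pass. Its cluster partner Zfp932, which represses endogenous retroviruses, had 10.47 in Snai1 and 10.33 in EV (change 0.13, FDR 0.200). Zfp467, known for directing bone marrow stromal cells toward fat or bone, had 8.90 in Snai1 and 9.60 in EV (change -0.70, FDR 8.06e-09) in the authors' deposited table. It closes a cluster on chromosome 6 whose other 7 members held 1 gain and no loss. The window of Krba1, 49.5 kb before it, was also lower in Snai1 (change -0.87, FDR 1.07e-06), and that of Sspo, 3.1 kb beyond, did not pass. The promoter of Zfp467 (chr6:48445041-48445340, minus strand, GRCm38.p6) is shown because it was the only one among the 10 largest losses in which 2 copies of the E-box were found, in capitals, whose first bases stand at -184 and -25 from the RefSeq start.
Zfp467: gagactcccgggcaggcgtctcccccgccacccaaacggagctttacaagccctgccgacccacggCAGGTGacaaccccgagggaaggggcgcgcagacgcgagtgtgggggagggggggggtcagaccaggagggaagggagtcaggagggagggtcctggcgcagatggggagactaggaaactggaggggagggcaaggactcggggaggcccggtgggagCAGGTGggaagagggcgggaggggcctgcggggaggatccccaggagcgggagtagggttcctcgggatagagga

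Some losses moved with their surroundings. Zfp839 (chromosome 12) had 9.76 in Snai1 and 10.42 in EV (change -0.67, FDR 4.77e-16) in the authors' deposited table, where its neighbours Wdr20 (-0.66) and Cinp (-0.31) were also lower in Snai1. The local median there was -0.39, and the loss left after subtracting it was -0.28 (re-test FDR 0.00443). Zfp148 (chromosome 16), whose protein binds GC-rich promoter elements, had 10.99 in Snai1 and 11.62 in EV (change -0.63, FDR 4.54e-17) in the authors' deposited table, with a local median of -0.41 and -0.22 left (re-test FDR 0.0191). For Zfp281 on chromosome 1 (11.79 in Snai1 and 12.01 in EV, change -0.22, FDR 0.0227) and Zfp386 on chromosome 12 (11.04 in Snai1 and 11.27 in EV, change -0.24, FDR 0.00457), the loss ended: 0.02 and -0.04 were left. By contrast the losses at Zfp820 and Zfp2 were as large after the local subtraction, at -4.85 and -4.92. For Zfp53, where only the chromosome's median could be subtracted, -5.39 was left.

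Gains were led by Zfp711, a lone X-linked gene whose human homolog is an intellectual disability gene. Its window (chromosome X, 112599526 to 112601526, at the 5' end) had 9.09 in Snai1 and 6.62 in EV, a change of 2.47 (FDR 2.7e-62, implied SE 0.15) in the authors' deposited table. It was the least accessible Zfp window of the longer kind in EV, and in Snai1 it still lay below the median of these windows in EV (10.95). The nearest windows, at Apool (-0.01) and Chm (0.13), did not pass.

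The other gains were below 1 log2. Zfp629 had 10.29 in Snai1 and 9.60 in EV (change 0.69, implied SE 0.11, FDR 3.23e-09), and Zfp109 had 7.52 in Snai1 and 6.83 in EV (change 0.69, implied SE 0.18, FDR 0.00135), both on chromosome 7 and at windows inside the gene in the authors' deposited table. For neither was the next window on either side called. The rest of the 10 largest gains were alike in size, between 0.32 and 0.38: Zfp292, Zfp870, Zfp64, Zfp239, Zfp971, Zfp296 and Zfp457. After the local subtraction Zfp292, Zfp239 (0.17 left) and Zfp457 (0.12 left) lost their call, while Zfp870, Zfp64, Zfp971 and Zfp296 kept theirs. After the overall subtraction Zfp239, Zfp457 and Zfp296 lost it. Zfp64, needed in human leukaemia cells for expression of the MLL gene, had 12.12 in Snai1 and 11.77 in EV (change 0.34, FDR 1.85e-05) in the authors' deposited table, where the local median was 0.03. Zfp296, a factor of pluripotent cells, had 11.02 in Snai1 and 10.69 in EV (change 0.33, FDR 0.00872). Zfp292 had 10.50 in Snai1 and 10.13 in EV (change 0.38, FDR 2.67e-04), but its local median was 0.30 and 0.09 was left (re-test FDR 0.615).

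Zfp genes with a Zfp neighbour were then set beside lone ones. Joining starts within 1 Mb gave 34 clusters with 175 genes, of which 14 clusters held at least 5, and left 84 lone genes. Symbols with letters after the number were not joined, so a lone gene can lie near such a gene, as Zfp2 does near Zfp354c. Of the clustered genes, 38 were higher in Snai1 (21.7%, against 19.6% of all genes) and 11 lower (6.29%, against 10.3%), with a median change of 0.14. Of the lone genes, 14 were higher (16.7%) and 11 lower (13.1%), with a median of 0.13. Without the chromosome 17 cluster of Zfp53, 37 of 155 clustered genes were higher (23.9%) and 5 lower (3.23%). After the local subtraction, 9 clustered genes were higher (5.14%) and 12 lower (6.86%), and 4 lone genes were higher (4.76%) and 9 lower (10.7%), against 5.63% higher and 8.41% lower among all genes. At FDR 0.01 the order of the higher shares turned round, with 9.14% of clustered and 11.9% of lone genes. Neighbouring windows are not independent, so these shares are a description with no test.

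The levels of the promoters differed as well, though they can be set side by side only within a window length. Among the shorter windows, on the minus strand, the median log2 concentration of clustered genes was 10.14 in Snai1 and 9.91 in EV, and that of lone genes 10.82 in Snai1 and 10.76 in EV. Among the longer windows, on the plus strand, clustered genes had 10.95 in Snai1 and 10.91 in EV, and lone genes 11.16 in Snai1 and 11.12 in EV. The medians of all genes were 10.61 in Snai1 and 10.55 in EV for the shorter windows, and 11.06 in Snai1 and 10.96 in EV for the longer ones. Within each length, clustered promoters had the lower median in both Snai1 and EV. Just inside the 1 Mb limit, Zfp592 and Zfp710 (969 kb apart) had changes of 0.29 and 0.08. Just outside it, Zfp598 (1106 kb from Zfp213) had a change of 0.17, and Zfp958 and Zfp358 (1120 kb apart) of 0.22 and 0.16.

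Calls are listed by cluster below, where over all genes 19.6% were higher in Snai1 and 10.3% lower. Whether their spread over the clusters departs from these shares was not tested. A loss was called in 6 of the 34 clusters, a gain in 18 and both in 3, and the median change was positive in 28. On the distal of the large chromosome 17 clusters, from Zfp871 to Zfp414, 6 of 9 genes were higher in Snai1 and none was lower, with changes from 0.00 at Zfp952 to 0.34 at Zfp870. The 4 windows of other genes among them had a median of 0.23, close to the 0.24 of the Zfp genes. On chromosome 13, from Zfp712 to Zfp273, 4 of 15 genes were higher and none lower, with a median of 0.20 and 0.24 at the 5 other windows among them. The largest set, 71 genes on chromosome 7, held 12 gains and 1 loss, at Zfp658 (9.49 in Snai1 and 9.89 in EV, change -0.40, FDR 9.86e-04). On the same chromosome, none of the 6 genes from Zfp628 to Zfp580 and none of the 9 from Zfp787 to Zfp772 passed. The SD of the changes within a cluster was 1.586 in the proximal chromosome 17 cluster and at most 0.686 in any other.

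**Figure D3:**
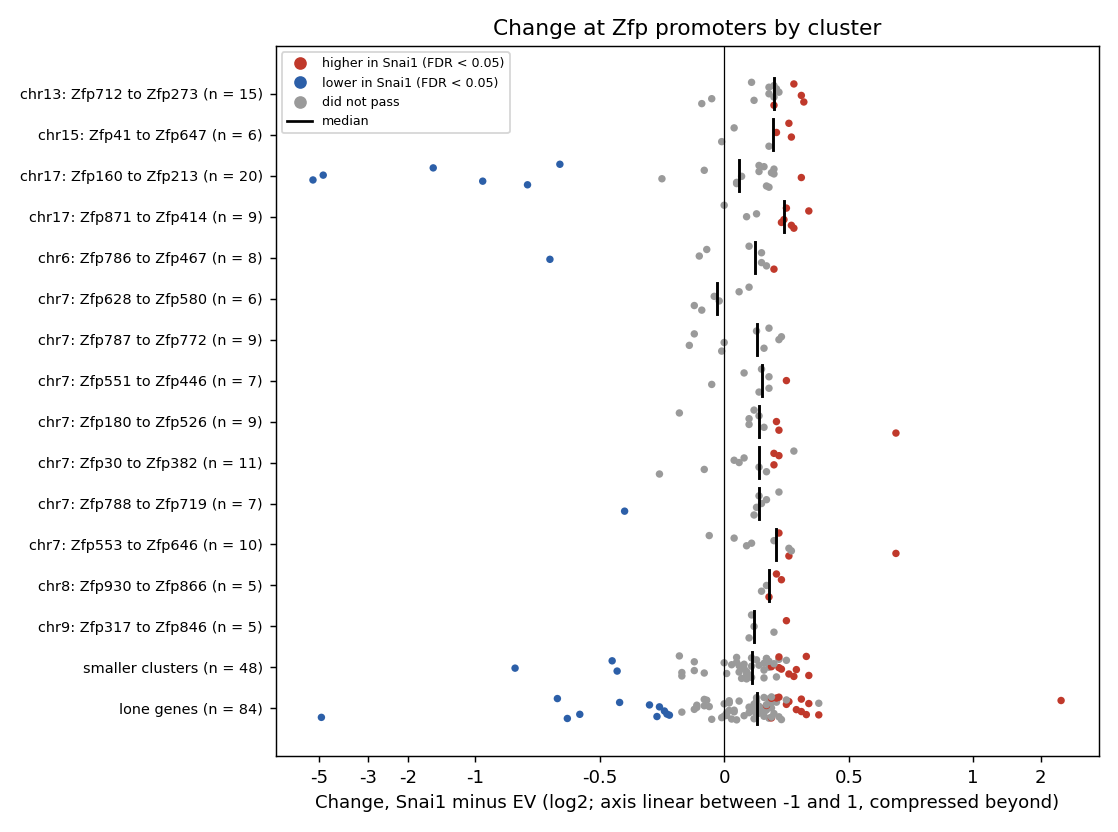
Change in log2 concentration (Snai1 minus EV, horizontal axis, linear between -1 and 1 and compressed beyond) for each Zfp gene (points) in the 14 clusters of at least 5 genes, in the smaller clusters and among lone genes; black bars are medians. Most groups lie slightly to the right of 0, while the cluster from Zfp160 to Zfp213 spreads to -5.30.

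Zfp genes with a known role were followed whatever their values. Of 37 such genes, 30 had a window: 8 were higher in Snai1 (against 19.6% of all genes), 5 were lower (against 10.3%) and 17 did not pass. Beside Zfp281 and Zfp148, the losses were at Zfp521, Zfp217 and Zfp318. Zfp521, a cofactor of immature blood and nerve cells, had 10.58 in Snai1 and 10.83 in EV (change -0.26, FDR 0.00421), and Zfp217, a partner of CoREST-type repressor complexes, had 11.27 in Snai1 and 11.54 in EV (change -0.27, FDR 0.0286) in the authors' deposited table. Zfp318, which controls the choice between IgM and IgD in B cells, had 11.63 in Snai1 and 11.86 in EV (change -0.23, FDR 0.0375). The windows around Zfp521 and Zfp318 were not lower, with local medians of 0.19 and 0.10, and Zfp217 had too few windows within 2 Mb (4) for a local median. The loss at Zfp521 was -0.45 after subtracting the local median (re-test FDR 1.21e-07).

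The gains among them were at Zfp64 and Zfp292 and at 6 others. Zfp568, a repressor of a placental Igf2 transcript, had 11.81 in Snai1 and 11.59 in EV (change 0.22, FDR 0.0131), and Zfp91, a ubiquitin ligase of NF-kB signalling, had 11.56 in Snai1 and 11.35 in EV (change 0.21, FDR 0.00681) in the authors' deposited table. Zfp622 (0.25) and Zfp598 (0.17), which act on ribosome assembly and on stalled ribosomes, and Zfp369 (0.31) and Zfp263 (0.26) also passed. Of these 6, only Zfp568 was called after the local subtraction, at 0.20 (re-test FDR 0.0458).

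Like 185 of the 259 Zfp genes, the silencers Zfp57, Zfp445 and Zfp809 did not pass, while the repressor Zfp568 did. Zfp57, which keeps imprints, had 10.36 in Snai1 and 10.18 in EV (change 0.18, FDR 0.0960), and Zfp445, which acts with it, had 9.56 in Snai1 and 9.41 in EV (change 0.14, FDR 0.275) in the authors' deposited table. Zfp809, which silences murine leukaemia viruses in stem cells, had 11.47 in Snai1 and 11.31 in EV (change 0.16, implied SE 0.07, FDR 0.0594). The architectural factor Zfp143 had one of the most accessible windows, with 12.63 in Snai1 and 12.50 in EV (change 0.12, FDR 0.264). The mRNA decay gene Zfp36, the pluripotency marker Zfp42, and Zfp219, Zfp423, Zfp708, Zfp750 and Zfp827 had no window. A pair of Zfp36 relatives outside the symbol rule passed: Zfp36l1 had 9.42 in Snai1 and 10.09 in EV (change -0.66, FDR 1.38e-08), and Zfp36l2 had 12.84 in Snai1 and 12.62 in EV (change 0.22, FDR 0.0413), in the authors' deposited table.

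Promoter sequences were found in RefSeq for 214 of the 259 genes. The letters CAGGTG or CACCTG (the same site on either strand) stood in 26 of them (12.1%), against 16.0% of all genes with a window and 20.2% of all RefSeq promoters of the same length. They stood in 5 of 20 Zfp promoters lower in Snai1, in 5 of 40 that were higher (12.5%) and in 16 of 154 that did not pass (10.4%), where the shares over all genes were 18.8% for lower and 13.9% for higher ones. The 5 lower ones were Zfp53 (at -177 from the start), Zfp995 (at -15), Zfp467, Zfp3 and Zfp664. The promoters of Zfp820, Zfp2 and Zfp948 did not hold these letters. A match describes the sequence only and is not a measured binding site. The median observed over expected ratio of CpG dinucleotides was 0.66 in Zfp promoters. That was below the 0.80 of all genes with a window and above the 0.38 of all RefSeq promoters. The ratio was 0.62 in clustered and 0.81 in lone genes.

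Some promoters shared sequence, and alike promoters could differ in their change. Over the 300 bp, pairs of Zfp promoters were 45.3% identical in the median (46.0% within a cluster), and 33 pairs reached 60%, 17 of them within a cluster. Zfp53 and Zfp983 were 61.7% identical, with changes of -5.30 and 0.16, and Zfp948 and Zfp983 were 60.7% identical, with changes of -1.54 and 0.16. The most alike pair, Zfp758 and Zfp943 of the same cluster (94.7%), had changes of 0.31 (FDR 0.00124) and 0.19 (FDR 0.115). Reads from near-identical promoters may be placed at either copy, and how the aligner handled such reads is unknown here. The windows of Zfp942 and Zfp943, and those of Zfp668 and Zfp646, share bases and are not separate measurements.

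Other zinc finger families, grouped by symbol, rested on few calls each, where over all genes 19.6% were higher in Snai1 and 10.3% lower. Of 35 Zbtb genes, which pair zinc fingers with a BTB domain, 6 were higher in Snai1 (17.1%) and 7 lower (20.0%). The lower ones lay on chromosomes 1, 12 and 16. After the local subtraction 1 of them, Zbtb42, was still lower, while Zbtb21 turned to a called gain (0.19, re-test FDR 0.0379). Of 14 Zscan and Zkscan genes, which carry a SCAN domain, 4 were higher (28.6%) and none was lower. The gains were led by Zscan22, with 9.86 in Snai1 and 9.07 in EV (change 0.79, FDR 1.02e-13) in the authors' deposited table. Of 12 genes with a Klf or Sp symbol, 2 were lower (16.7%) and none higher. These symbols include Sp100, Sp110 and Sp140, which are not of the Sp zinc finger family and did not pass. Of 17 genes with a Zc3h symbol, 2 were higher (11.8%) and none lower. The differences between families were not tested.

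The listed co-factors of KRAB zinc finger proteins were called at shares near the background, 26.7% against 29.9% of all genes. Of 30 such genes with a window, 5 were higher in Snai1 (16.7%, against 19.6% of all genes) and 3 lower (10.0%, against 10.3%). Their median change was 0.05. Trim28 had a change of 0.05 and Setdb1 of 0.06, and neither passed. The gains were at Atrx (0.28), Tasor (0.26), Smarcad1 (0.25), the HP1 gene Cbx5 (0.24) and Uhrf1 (0.24), and none of them was called after the local subtraction (that of the chromosome for Smarcad1). The losses were at Morc3 (-0.66), Rcor1 (-0.42) and Sumo2 (-0.34). Rcor1 and Kdm1a, which were on the list, belong to a CoREST-type repressor complex and are not KRAB co-factors in particular. The local medians at Morc3 and Rcor1 were -0.70 and -0.40, and only the loss at Sumo2, where it was 0.01, was also called after subtraction (-0.35, re-test FDR 3.79e-04).

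**Figure D4:**
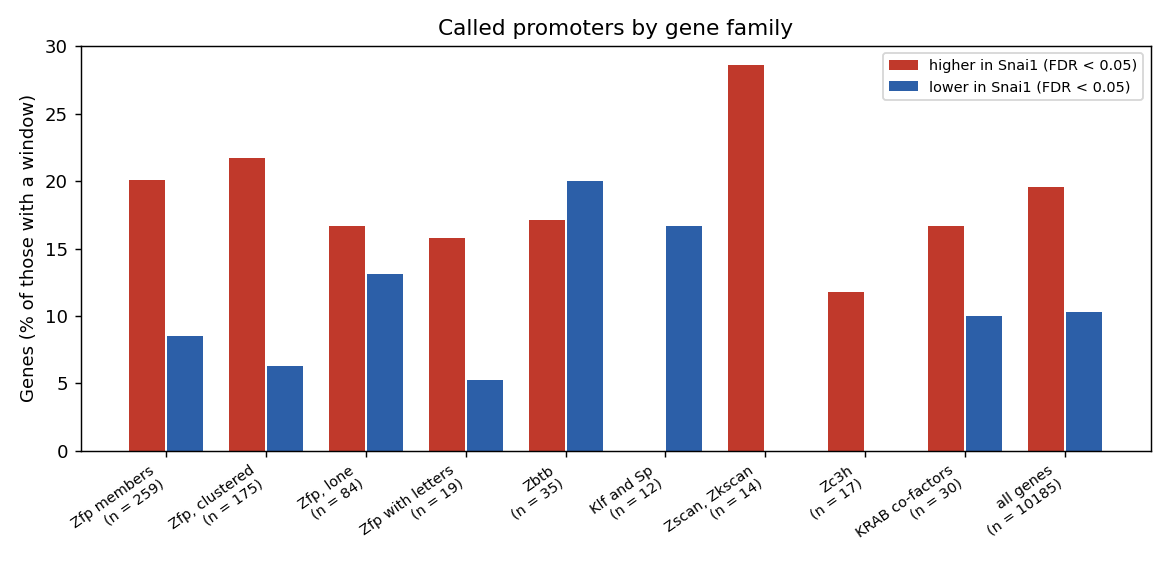
Percent of genes with a window that were called higher (red) or lower (blue) in Snai1 at the authors' FDR of 0.05 (vertical axis). Groups (horizontal axis, number of genes below each) are the Zfp genes, their clustered and lone members, other families by symbol, KRAB co-factors and all genes. The Klf and Sp bars include Sp100, Sp110 and Sp140, which are not of the Sp zinc finger family. On the authors' scale the Zfp bars, 20.1% higher and 8.49% lower, lie near those of all genes, 19.6% and 10.3%, and bars of families under 40 genes rest on few calls.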

How the data were processed

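ATAC-seq libraries of Snai1 (3), mut5Snai1 (3) and EV (3) were made by the authors. The tools named in the submitters' processing notes are DiffBind, Picard, Bowtie2 and fastp, and the build is mm10. Versions, read shifting, multi-mapping and scaling: not given in the sources used here. Per the file headers, the deposited table held the authors' log2 concentrations per group and log2 fold (EV minus Snai1, sign turned here), and the authors' p-value and FDR (a p-value adjusted over all windows). Of 10274 rows, 3 repeats were dropped. No value per library was given (columns of values per sample: 0), so no test across libraries was run.

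The table names no genes. Windows on the plus strand run from 1000 bp before to 1000 bp after the start position and those on the minus strand, which are shorter, from 1000 bp before to 100 bp after it. Of 10271 windows, 8955 lay at a gene's 5' end, 1275 inside a gene and 41 at none. Of the Zfp genes, 49 (18.9%) had a window inside the gene, 37 of them within 100 bp of a RefSeq start. The gene table gives no strand, which was taken from the promoter table where listed.

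The implied SE divides the change by the deviate of a normal distribution at p; where the change was under 0.1 or p was 0, the median of 20 accessibility bins was used. Re-tests subtracted the overall median, or that of at least 5 non-Zfp windows within 2 Mb (otherwise of the chromosome), and adjusted by Benjamini-Hochberg over all windows; this step was tested on simulated data. Promoter identity was computed with edlib 1.3.9, other steps with Python 3.11.15, pandas 2.3.3 and scipy 1.17.1. Named genes were every called gene with at least 1 log2, the 10 largest gains and losses, genes of clusters with at least 5 members and a list with known roles. Members and lists were chosen with earlier results of these data known.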

Additional observations from a re-analysis of the deposited data

How the results depend on the processing

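The losses at Zfp53, Zfp820, Zfp2, Zfp948 and Zfp52 and the gain at Zfp711 kept their direction and their call at FDR 0.01 and after subtracting the overall or the local median (for Zfp53, Zfp948, Zfp52 and Zfp711 that of the chromosome). The share of Zfp genes higher in Snai1 (20.1%) was 10.0% at FDR 0.01, 5.02% after subtracting the overall median and 5.02% after the local one, where the median change was 0.06 and 0.04. Among clustered genes the higher share was 9.14% at FDR 0.01 and 5.14% after the local subtraction (median change 0.045); among lone genes it was 4.76% (median 0.022), and at FDR 0.01 it was 11.9%, above that of clustered genes, with 8.33% lower. The lower share of clustered genes was 3.23% without the chromosome 17 cluster of Zfp53, an alternative chosen after seeing the data. After the local subtraction Zfp263 reversed to -0.02 and Zfp281 to 0.02; the cause was not tested. Of 161 named genes, 23 lost their call at FDR 0.01, 30 after the overall and 27 after the local subtraction, beside the 2 that reversed. Other windows per gene, a level of at least 9, other join distances, cluster rules and symbol rules, and either window length moved no share by over 1.5 times. Symbols with letters after the number were added only for the shares of the whole family. The clustered and lone classes were not checked under that rule. No paired analysis was possible because the table gives 1 value per group. Leaving out a library was likewise not possible. The comparison of KRAB-box with other members and the restriction to genes with at least 3 fingers were not run, since no protein sequences were used here. Depth is unknown, and the implied SE, 0.087 in the median, bounds the precision.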

Other observations

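Zfp687 was the only Zfp gene with 2 windows. At its 5' end the authors' deposited table gave 12.77 in Snai1 and 12.56 in EV (change 0.21, FDR 0.0523). At a second window inside the gene it gave 8.38 in Snai1 and 8.77 in EV (change -0.39, FDR 0.00471). The more and the less accessible window of this gene thus differed in the sign of their change, and the difference itself was not tested.

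Among Zfp genes with alike promoters, Zfp120 and Zfp442 on chromosome 2 (68.7% identical) had changes of 0.16 (FDR 0.189) and -0.43 (FDR 0.0443). Zfp457 and Zfp759 on chromosome 13 (74.3% identical) had changes of 0.32 (FDR 0.00553) and 0.18 (FDR 0.122). Zfp747 and Zfp764 on chromosome 7 (86.0% identical) had changes of 0.20 (FDR 0.0692) and 0.04 (FDR 0.806).

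At a short cluster on chromosome 8, every gene with a window passed, in both directions. Zfp882 had 9.59 in Snai1 and 10.04 in EV (change -0.45, FDR 3.88e-04) in the authors' deposited table, and its 2 neighbours were higher in Snai1, with a median of 0.22 over the 3 genes.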
